A study of Mus musculus with 16 samples.

Results

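This account compares the aortic valve with the ascending aorta within Eln+/- mice, the animals that carry a single functional elastin allele. It uses 8 of the series' 16 arrays, namely the 4 labelled as Eln+/- aortic valve and the 4 labelled as Eln+/- aorta, chosen by their titles alone. All mice were 30 days old and untreated. The valve specimens held cusp, annulus and root together, and the aorta specimens were ascending aorta taken from the dissected heart. Each array carried the RNA of a single specimen from a single animal without pooling, amplified from 1 to 20 ng. The other 8 arrays, of the same tissues from Eln+/+ mice, set the tissue difference beside that of wild-type animals. They also enter the fit of all 16 arrays, from which the spread behind every p-value was estimated. The titles mark the 8 Eln+/- arrays with the code TG, which the labels do not explain. The labels name no Cre line or driving promoter and do not say how the allele was made. They give neither strain nor sex.

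The aortic valve consists of thin cusps of interstitial cells in a layered matrix of collagen, proteoglycan and elastic fibres, anchored in a fibrous annulus that borders the heart muscle. The ascending aorta is an elastic artery, whose wall is built of smooth muscle cells between elastic lamellae. Elastin is laid down on microfibrils of fibrillins and associated glycoproteins and is crosslinked by lysyl oxidase. Atrial and ventricular muscle, smooth muscle and cartilage use different members of the same actin, myosin and collagen families, which makes related genes informative about a tissue difference.

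The values are log2 of a deposited ratio. For most probe sets the ratio is 1 at the median of the 16 arrays, so a log2 value of 0 is the series' median for that probe set and levels of different genes cannot be set against each other. A gene was called when limma's test with Benjamini-Hochberg adjustment over 45037 probe sets gave an adjusted p below 0.05, and "rose" and "fell" mean higher or lower in the valve than in the aorta. A gene with several probe sets is described by the probe set that varied most over the 16 arrays. Of the called genes named here, 97 have several; in 47 of them at least 1 other probe set did not pass, and in 6 at least 1 had the opposite sign, none of these called. For 30 of the 97 the shown difference was more than 1.5 times the mean of the gene's probe sets, which is then given beside it. The labels do not pair specimens by animal. The p-values rest on the spread between specimens of the same tissue and genotype, estimated over all 16 arrays. In whole tissue, fewer cells of a type and less RNA per cell cannot be told apart.

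Tissue was the main axis among the 8 arrays. The first principal component held 42.1% of the variance and put the 4 valve arrays between 35.2 and 85.1 and the 4 aorta arrays between -80.0 and -38.2. The second component held 19.2% and set aorta replicate 2 at -99.3, with the other 7 arrays between 1.49 and 43.1. Aorta replicate 2 had the highest mean of the adipocyte list (1.78, against -0.11 to 0.46 in the other aortas), of the T cell and thymocyte list (1.44, against -0.13 to 0.59), of macrophage genes (1.04) and of erythroid genes (1.01). Aorta replicate 3 carried far more heart muscle signal than the other aortas, with a mean of the sarcomere list of -0.57 against -3.47 to -2.77. Among the valves, replicate 3 had the highest sarcomere mean (1.89) and the lowest smooth muscle mean (-1.63), and replicate 4 had the lowest atrial mean (0.66 against 1.61 to 2.11). The effect of leaving out single arrays is given beside the results.

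**Figure D1:**
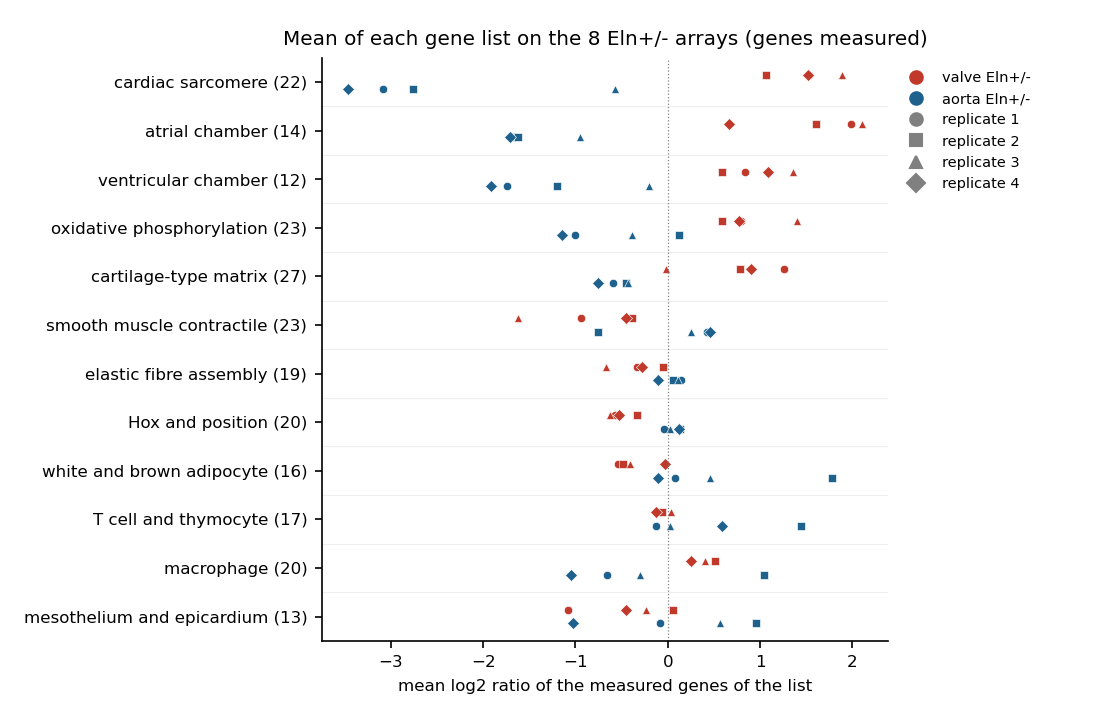
Mean log2 ratio of the measured genes of 12 gene lists (horizontal axis) on each of the 8 Eln+/- arrays, with valve in red, aorta in blue and the marker shape giving the replicate. Sarcomere means of the 4 valves lie between 1.06 and 1.89, above all aortas, of which replicate 3 lies closest at -0.57, and aorta replicate 2 stands to the right on the adipocyte, T cell and macrophage lists.

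Elastin itself was lower in the Eln+/- valve than in the Eln+/- aorta. The log2 ratio of Eln was -2.03, -1.38, -2.62 and -0.81 in the 4 valves and 0.0028, -0.64, 0.13 and 0.039 in the 4 aortas. No valve reached the lowest aorta, which was replicate 2. The mean was -1.71 ± 0.78 (SD, n = 4) in the valve and -0.12 ± 0.35 (SD, n = 4) in the aorta, a fall of 3.02-fold (log2 difference -1.60 ± 0.34 SE, limma adjusted p = 0.0110). The exact two-sided permutation test of the 8 arrays gave p = 0.0286, the smallest value that its 70 assignments allow. The other Eln probe set separated the tissues by a small margin, with the highest valve at -0.23 and the lowest aorta at -0.21. Its log2 difference was -0.75 ± 0.22 SE and did not pass limma's threshold (adjusted p = 0.0576). In Eln+/+ mice the shown probe set read -0.62, -0.0028, 0.043 and -1.19 in the valves and 0.42, 0.48, 0.045 and 0.27 in the aortas, a log2 difference of -0.74 with limma adjusted p = 0.405.

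Over the whole array, 1473 probe sets were higher in the valve (3.27% of those tested) and 1142 were lower (2.54%). Of 18193 genes, 802 rose (4.41%) and 483 fell (2.65%). Counts within the gene lists below stand against these shares. In 737 of the genes that rose and 395 of those that fell, the 4 valve and 4 aorta values did not overlap. A call with 4 arrays per group favours such separation. The share over all genes was not counted, so these 2 numbers are only a description. The median log2 difference was 1.47 among genes that rose, -1.10 among genes that fell and -0.0030 over all genes. Rises were larger than falls at the extremes: 113 genes rose by more than 3 on the log2 scale and 2 fell by more than 3.

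Most of the 15 highest rises were genes of heart muscle or of the hormones that it secretes. These and the 15 deepest falls below were taken from called genes whose valve and aorta values did not overlap. Separation of the tissues in them was thus fixed by the choice. Nppa, which encodes atrial natriuretic peptide, read 3.83, 3.53, 3.97 and 0.86 in the valves and -4.76, -2.64, -2.40 and -4.73 in the aortas. Valve replicate 4 lay well below the other valves. The difference was 6.68 ± 0.73 (log2, SE), a 103-fold ratio (limma adjusted p = 0.000149). Sln, for sarcolipin, the atrial regulator of the calcium pump, differed by 6.45, Myl7, the atrial regulatory myosin light chain, by 6.40, and Kcnj3, a subunit of the acetylcholine-gated potassium channel, by 6.24. Ttn, for titin, differed by 6.03 and Hamp, for the iron hormone hepcidin, by 5.99. The others were Smpx, Smyd1, Trdn, Lmod2, Ckmt2, Myom2, Mapk10, Tecrl and Myh6, between 5.51 and 5.91. All 15 kept their call when any single array was left out. Averaged over all probe sets of the gene, the difference was 3.84 for Sln, 3.69 for Kcnj3, 2.68 for Smyd1, 3.59 for Myom2 and 2.57 for Mapk10.

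The 15 deepest falls were more mixed. Bmpr1b, a type I receptor for bone morphogenetic proteins, read -2.25, -2.52, -3.39 and -2.34 in the valves and 0.35, 0.16, 0.42 and 1.96 in the aortas, so the groups were more than 2 log2 units apart. It fell by 3.35 ± 0.46 (log2, SE; 10.2-fold; limma adjusted p = 0.00063). Serpina1b, an alpha-1-antitrypsin gene, read -0.71 to -0.22 in the valves and 2.95, 5.34, -0.22 and 2.48 in the aortas. Its difference of -3.14 rested on the 3 aortas other than replicate 3, and its call was lost without aorta replicate 1 or 4 or any of the 4 valves (limma adjusted p 0.0606 to 0.0847). Serpina1b is 1 of several near-identical copies, so probes may read more than this copy. Ncam1, a neural cell adhesion molecule, fell by 2.77, Dio2, the deiodinase that activates thyroid hormone, by 2.66, and Pgr, the progesterone receptor, by 2.65. Tktl1, Hoxa3, Mark1, Ly75, 4930579P08Rik, Ptprz1, Dlx5, Mia, Acta2 and Cdo1 fell by 2.14 to 2.52. Of these 15 genes, 8 kept their call when any single array was left out. Besides Serpina1b, the calls lost in at least 1 such fit were those of Pgr, Tktl1, Hoxa3, Dlx5, Acta2 and Cdo1, with limma adjusted p between 0.0519 and 0.0843 in the fits that lost them. Averaged over their probe sets, Ncam1 fell by 1.58, Mark1 by 1.5 and Acta2 by 1.44.

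**Figure D2:**
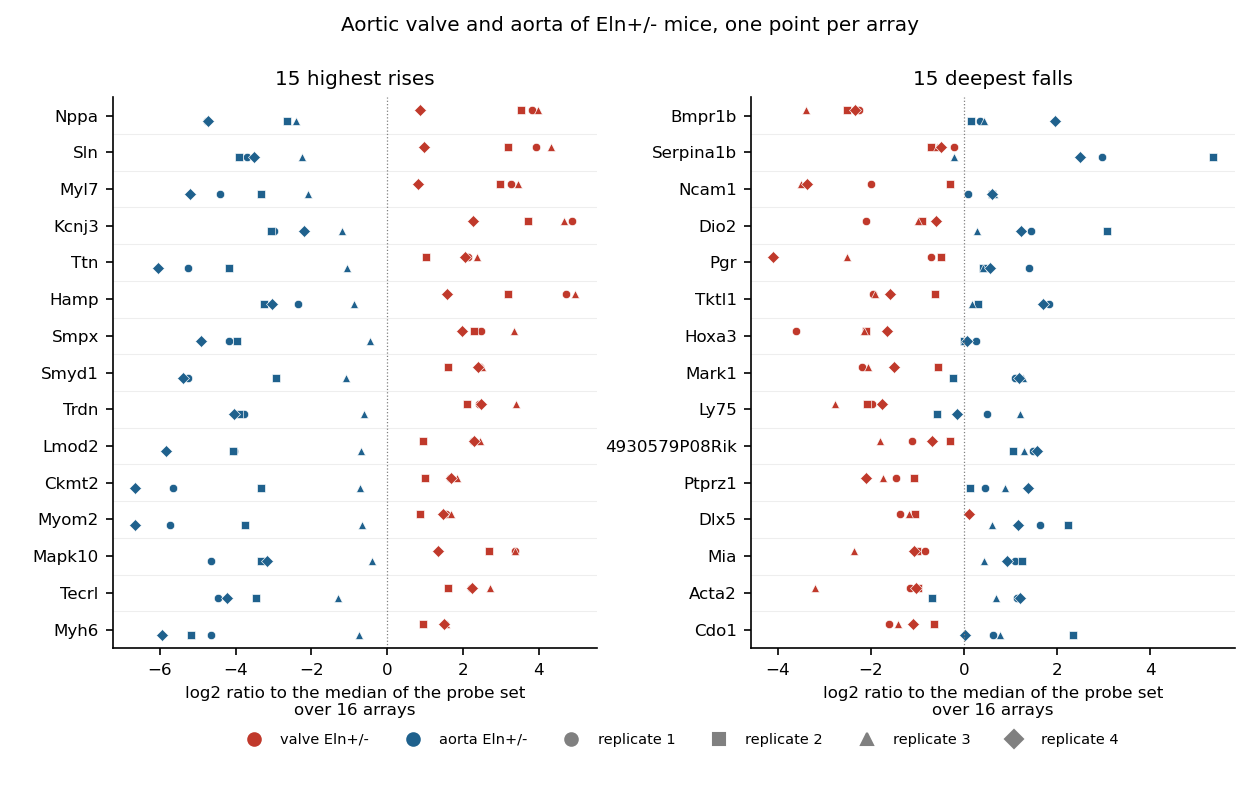
Log2 ratio to the probe set's median over 16 arrays (horizontal axis) for the 15 genes with the highest rise (left) and the 15 with the deepest fall (right), 1 point per array, with valve in red, aorta in blue and the marker shape giving the replicate. Both sets were taken from called genes without overlap of the tissues' arrays, so the separation shown was fixed by the choice. Aorta replicate 3 is the highest aorta for the genes on the left, and valve replicate 4 is the lowest valve for Nppa (0.86), Sln (0.98) and Myl7 (0.82).

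Heart muscle genes rose as a body. Of 22 measured sarcomere genes, 20 rose and none fell (none at unadjusted p below 0.05 either), with a median log2 difference of 4.30 against -0.0030 for all genes. The count was 19 or 20 without any single array and 14 without aorta replicates 2 and 4 together. Myh6, the alpha myosin heavy chain of atria and adult mouse ventricle, read 1.53, 0.94, 1.56 and 1.52 in the valves and -4.65, -5.17, -0.73 and -5.94 in the aortas. Aorta replicate 3 lay close below the valves, whereas the other 3 aortas were far below every valve. Actc1, the cardiac actin, likewise had aorta replicate 3 as its highest aorta, with 0.90, 0.66, 1.21 and 0.99 in the valves and -5.21, -3.06, -0.70 and -4.59 in the aortas (difference 4.33 ± 0.82 SE, limma adjusted p = 0.00589). Myom2 and Ckmt2 reached the lowest ratio in the deposited table, 0.01, in aorta replicate 4. Nebl, the Z-disc protein nebulette, differed by 4.65, Actn2, the sarcomeric alpha-actinin, by 4.12 and Tnnt2, cardiac troponin T, by 3.31. The members that did not pass were Xirp1 (0.24) and Myom1 (0.02).

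Atrial and ventricular genes varied differently from specimen to specimen. Of 14 atrial genes 9 rose and none fell (none at unadjusted p below 0.05 either), with a median difference of 2.90. The count was 9 under each of the 18 alternative settings. Myl4, the atrial essential light chain, read 2.81, 2.57, 3.13 and 0.82 in the valves and -2.81, -3.29, -1.86 and -2.56 in the aortas (difference 4.96 ± 0.47 SE, limma adjusted p = 0.000103). As for Nppa, Sln and Myl7, valve replicate 4 was the lowest valve. Myh7, the slow ventricular myosin heavy chain, read 2.09, 2.02, 3.02 and 3.02 in the valves and -1.58, -1.90, -0.08 and -1.84 in the aortas, with valve replicate 4 level with the highest valve. The ventricular light chain Myl2 likewise read 0.70, 0.66, 1.04 and 1.04 in the valves. Myl4 differed by 2.91 averaged over its probe sets. Kcnj5, the partner of Kcnj3, differed by 5.03 (3.25 averaged), and Nppb, for brain natriuretic peptide, by 2.31. Of 12 ventricular genes 8 rose, with a median of 2.18, and 1 fell, the repressor Hey2 (-1.11). The number of ventricular rises was 5 without aorta replicate 1 or with the 8 arrays fitted alone, and 4 without aorta replicates 2 and 4 together. Gja5, the atrial and arterial gap junction gene, did not pass (-0.98, limma adjusted p = 0.289).

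Calcium handling and ion channels followed. Of 16 genes of cardiac calcium handling 9 rose and none was called lower, with a median of 2.35. Casq2, the calcium-binding calsequestrin of the heart, read 2.16, 1.40, 2.49 and 1.89 in the valves and -2.50, -2.80, -1.14 and -2.40 in the aortas (difference 4.19 ± 0.43 SE, limma adjusted p = 0.000124). Phospholamban (Pln) differed by 4.57, the ryanodine receptor Ryr2 by 3.21 and the calcium pump Atp2a2 by 3.12 (1.32 averaged over its probe sets). The L-type channel gene Cacna1c, which arteries share with the heart, showed 1.15 and did not pass (limma adjusted p = 0.0507). At unadjusted p below 0.05, 1 gene of this list was lower, and 1 was called lower without aorta replicate 2. Of 15 conduction and channel genes 8 rose and none was called lower, with a median of 1.43 and 1 lower at unadjusted p below 0.05; without aorta replicate 4, 1 was called lower. The T-type calcium channel Cacna1g rose by 1.72. Shox2, a sinus node transcription factor, read 3.21, 0.48, 2.83 and 0.62 in the valves and -1.08 to -0.05 in the aortas, and did not pass (limma adjusted p = 0.0514).

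Genes of energy supply were higher in the valve by smaller amounts. All 23 measured genes of oxidative phosphorylation had a positive difference, and 17 of them were called, with a median of 1.42. Cox6a2 (3.83) and Cox7a1 (2.83), the muscle forms of cytochrome oxidase subunits, differed most. Housekeeping members differed less, such as Ndufa5 (1.66), Atp5b (1.51) and Cox4i1 (0.83). The list mean was 0.80, 0.58, 1.40 and 0.77 in the valves and -1.0, 0.12, -0.39 and -1.15 in the aortas, so that aorta replicate 2 lay nearest to the valves. The count was 6 without valve replicate 3, 8 without aorta replicate 1 or 4, 9 without valve replicate 1 and 11 without aorta replicate 3. Calls that were lost in such fits include Cox7a1 and Cox4i1 (limma adjusted p 0.0546 to 0.132). Of 16 glycolysis genes 9 rose, led by the muscle enzymes Pgam2 (4.56) and Eno3 (3.76), with a median of 0.95. Of 22 fatty acid oxidation genes 3 rose, among them the fatty acid carrier Fabp3 (2.84, or 1.89 averaged over its probe sets), with a median of 0.61; 5 rose without aorta replicate 2 and 1 without valve replicate 3. The glycolysis count was 5 without aorta replicates 2 and 4 together.

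Hepcidin stood out among the 18 iron and copper genes, of which 4 rose and 1 fell. Hamp read 4.72, 3.20, 4.96 and 1.58 in the valves and -2.34, -3.24, -0.87 and -3.05 in the aortas (difference 5.99 ± 0.76 SE, 63.6-fold, limma adjusted p = 0.000352). Valve replicate 4 was again the lowest valve. Hjv, for hemojuvelin, the co-receptor upstream of hepcidin, rose by 4.63, while the probe sets of Hamp2, the related hepcidin gene, disagreed. One rose by 2.39 (limma adjusted p = 0.0115) and the other differed by -0.09 (limma adjusted p = 0.791), with an average of 1.15. The 2 hepcidin genes are close copies whose probes may share signal. Tfrc, the transferrin receptor, rose by 2.24, a call lost without any 1 of 7 arrays, aorta replicate 2 being the exception (limma adjusted p 0.054 to 0.11), and also on the average of its probe sets (1.75, limma adjusted p = 0.0798). Cybrd1, a ferric reductase, fell by 1.82 (limma adjusted p = 0.000816).

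**Figure D3:**
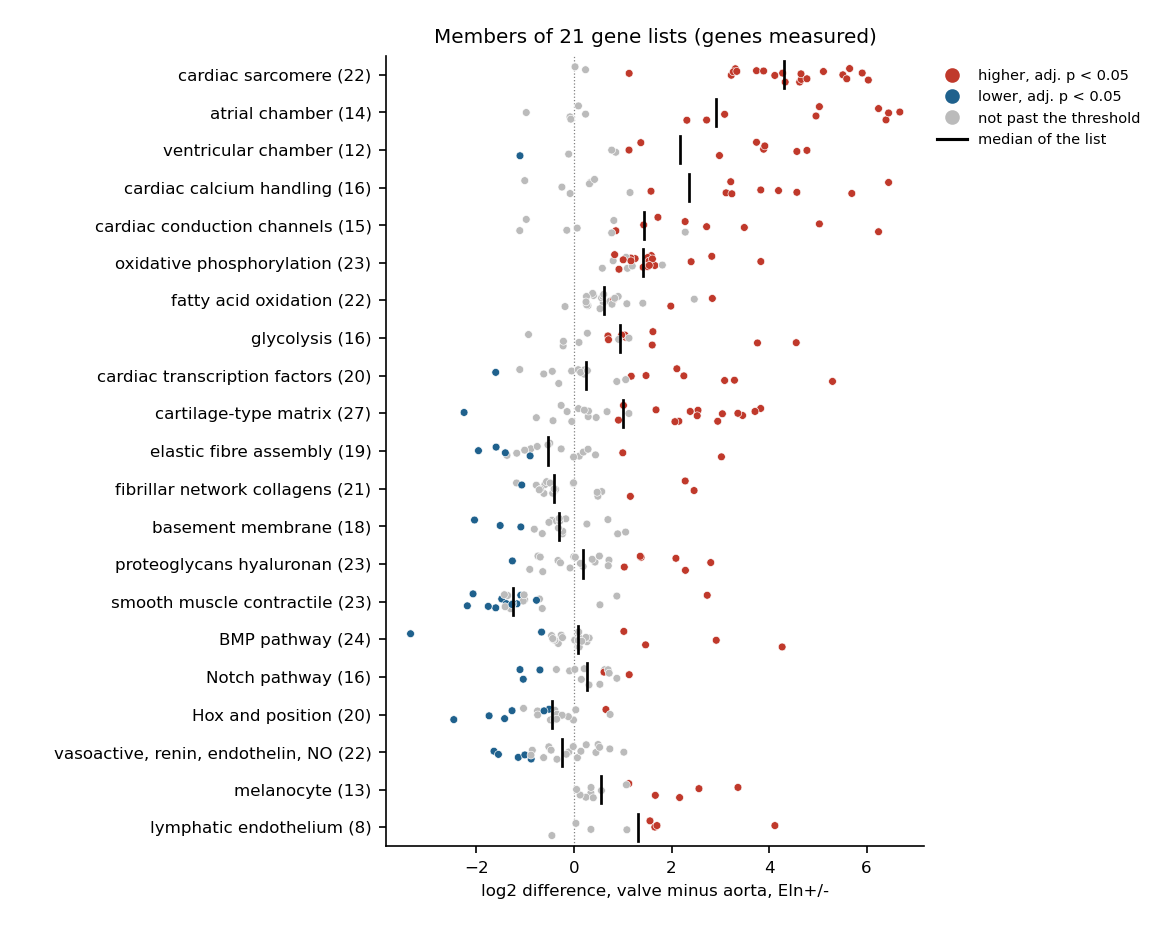
Log2 difference between valve and aorta in Eln+/- mice (horizontal axis) for each measured member of 21 gene lists, with members past limma's threshold in red (higher) or blue (lower), others in grey and a black bar at the list's median. Sarcomere members lie far to the right with a median of 4.30, and the smooth muscle list is mostly left of 0 with a median of -1.25.

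Smooth muscle genes ran the other way. Of 23 measured contractile genes 11 fell and 1 rose, with a median of -1.25. Acta2, the smooth muscle actin, read -1.17, -1.0, -3.20 and -1.04 in the valves and 1.14, -0.69, 0.68 and 1.20 in the aortas, and fell by 2.18 ± 0.52 (log2, SE; 4.55-fold; limma adjusted p = 0.0221). The groups were apart, by a small margin at aorta replicate 2. Myh11, the smooth muscle myosin heavy chain, read -1.39, -0.56, -2.04 and -0.85 in the valves and 0.30, -0.52, 0.70 and 0.60 in the aortas, and fell by 1.48 ± 0.31 (log2, SE; limma adjusted p = 0.0106). Myh11 kept its call without any single array. Mylk, the myosin light chain kinase, fell by 1.60, Myl9, the regulatory light chain, by 0.77 and Npnt, a matrix ligand of integrin, by 1.76. Kcnmb1, the beta subunit of the large calcium-activated potassium channel, fell by 2.07, with overlapping groups because valve replicate 2 read -0.09 and aorta replicate 2 -0.44. Cnn1 (-1.36), Lmod1 (-1.30), Tagln (-1.01) and Actg2 (-1.43) had limma adjusted p between 0.0512 and 0.0735, and all 4 passed without aorta replicate 2. The member that rose was Des, the intermediate filament desmin that heart muscle also makes (2.73, limma adjusted p = 0.000264; 1.68 averaged over its probe sets).

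The smooth muscle count depended on which arrays entered the fit. It was 19 without aorta replicate 2, 11 without aorta replicates 2 and 4 together, 2 without aorta replicate 1, aorta replicate 4 or valve replicate 3, 3 without aorta replicate 3 and 4 without valve replicate 1. It was 18 with array weights. With the 8 Eln+/- arrays fitted alone no member was called lower, against 19 lower at unadjusted p below 0.05 in the fit of all 16 arrays. The list's median ran from -1.53 to -0.94 over all 18 alternative settings. Acta2 lost its call without aorta replicate 1, 3 or 4 or valve replicate 3 (limma adjusted p 0.0557 to 0.0743), and Mylk and Myl9 lost theirs without any of those or valve replicate 1. On aorta replicate 2 the list mean was -0.76, inside the valve range of -1.63 to -0.39, and the adipocyte, T cell and macrophage means were at their highest among the 4 aortas; their part in the result was not tested.

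Related genes of the muscle families moved in opposite directions. Myl7 rose by 6.40 while Myl9 fell by 0.77, Myh6 rose by 5.51 while Myh11 fell by 1.48, and Actc1 rose by 4.33 while Acta2 fell by 2.18. Lmod2, the leiomodin of heart muscle, rose by 5.65, and the smooth muscle leiomodin Lmod1 showed -1.30 without passing. Gata4 rose by 2.11 (limma adjusted p = 0.00168), whereas Gata6 differed by -0.05 with a 95% interval from -0.50 to 0.41. The bases upstream of the transcription start are shown for the actin and light chain pairs, since these are the closest relatives with opposite calls. They come from RefSeq (GRCm38.p6) and cover the 250 bases before the start, read 5′ to 3′ on the gene's strand. Capitals mark matches on either strand to the CArG box, the site of serum response factor, or to CCCTATATGG, which departs from it by 1 base.
Actc1, chr2:114052876-114053125, minus strand: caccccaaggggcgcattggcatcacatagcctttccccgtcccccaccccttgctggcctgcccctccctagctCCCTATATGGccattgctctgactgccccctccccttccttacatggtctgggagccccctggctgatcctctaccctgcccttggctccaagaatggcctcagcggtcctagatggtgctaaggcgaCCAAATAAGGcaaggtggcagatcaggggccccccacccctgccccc
Acta2, chr19:34255374-34255623, minus strand: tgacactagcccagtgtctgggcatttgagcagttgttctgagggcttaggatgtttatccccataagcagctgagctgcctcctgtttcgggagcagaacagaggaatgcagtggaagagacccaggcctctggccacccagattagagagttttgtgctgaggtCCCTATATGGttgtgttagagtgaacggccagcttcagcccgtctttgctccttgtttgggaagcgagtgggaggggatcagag
Myl7, chr11:5898783-5899032, minus strand: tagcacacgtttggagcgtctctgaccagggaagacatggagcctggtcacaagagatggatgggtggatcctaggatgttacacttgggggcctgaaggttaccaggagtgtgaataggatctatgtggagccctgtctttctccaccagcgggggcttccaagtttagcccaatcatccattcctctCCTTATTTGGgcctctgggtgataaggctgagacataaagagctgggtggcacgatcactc
Myl9, chr2:156775214-156775463, plus strand: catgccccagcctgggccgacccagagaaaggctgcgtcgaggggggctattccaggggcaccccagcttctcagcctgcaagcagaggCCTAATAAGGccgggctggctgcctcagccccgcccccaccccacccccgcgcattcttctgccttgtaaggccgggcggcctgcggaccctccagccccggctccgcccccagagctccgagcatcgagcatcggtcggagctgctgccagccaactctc
Such letters stood before the heart and the smooth muscle member of each pair. CCCTATATGG was itself read from the Acta2 promoter, so its match there was fixed in advance, and Acta2 held no CArG box. Other letters that depart from the CArG box by 1 base were neither searched nor marked. The CArG box began 47 bases before the start in Actc1, 61 in Myl7 and 161 in Myl9, and CCCTATATGG began 175 bases before it in Actc1 and 84 in Acta2. Among 27025 genes with a promoter in the table, 1.62% held a CArG box in this window and 0.0333% held CCCTATATGG. A CArG box stood in 4 of the 18 sarcomere genes that rose and had a promoter there, and in 1 of the 9 such smooth muscle genes that fell. CATTCC, the letters of the muscle MCAT element, stood in 7 of those 18, in 3 of those 9 and in 14.4% of all promoters on either strand. The letters AGATAA, bound by factors of the Gata4 family, stood in 4 of the 18, in 0 of the 9 and in 11.4% of all. The motifs were chosen with the expression results known.

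**Figure D4:**
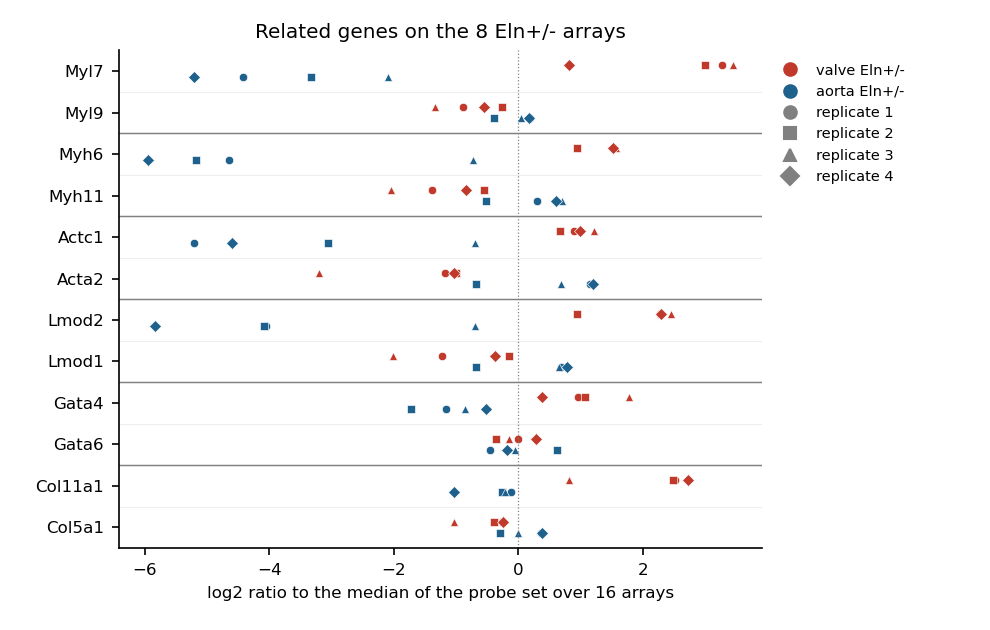
Log2 ratio to the probe set's median over 16 arrays (horizontal axis) for 6 pairs of related genes separated by grey lines, 1 point per array, with valve in red, aorta in blue and the marker shape giving the replicate. Myl7, Myh6, Actc1 and Lmod2 lie right in the valve, while their relatives Myl9, Myh11, Acta2 and Lmod1 lie left, and Gata6 overlaps where Gata4 separates.

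Elastic fibre genes moved both ways. Of 19 measured, 4 fell and 2 rose, with a median of -0.53; 7 fell without aorta replicate 2. Fbn2, fibrillin-2, the microfibril protein of early life, read 1.13, 1.62, 1.10 and 1.31 in the valves and -2.33, -0.42, -1.68 and -2.51 in the aortas, and rose by 3.02 ± 0.35 (log2, SE; limma adjusted p = 0.00024). Its groups did not overlap. Lox, lysyl oxidase, read -1.64, -0.24, -2.17 and -0.67 in the valves and 0.44, 1.18, 0.49 and 1.00 in the aortas, and fell by 1.96 ± 0.33 (log2, SE; limma adjusted p = 0.00244). The microfibril-associated genes Mfap5 (-1.41) and Mfap4 (-0.90) fell with Eln and Lox, and all 4 kept their call without any single array. Fbln1, fibulin-1, rose by 1.00, a call lost without aorta replicate 1 or 4 or valve replicate 1 or 2 (limma adjusted p 0.0507 to 0.105). Fbln5, the fibulin needed for elastic fibre assembly, showed -1.17 and did not pass (limma adjusted p = 0.171), whereas its other probe set, at -0.93, passed (limma adjusted p = 0.03).

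Among 21 fibrillar and network collagen genes 3 rose and 1 fell, with a median of -0.41. Col8a1 and Col8a2, the chains of type VIII collagen, rose by 2.46 and 2.28. Col8a1 read 1.42, 1.59, 1.10 and 1.71 in the valves and -0.74, -0.74, -0.57 and -1.97 in the aortas. The groups were apart, with the valves within 1 log2 unit of each other. Col1a2 (-0.77) and Col3a1 (-0.62), chains of the main fibrillar collagens, did not pass, and the fall was Plod2, a collagen-crosslinking enzyme (-1.07). The list had 5 falls without aorta replicate 2 and none without aorta replicate 4 or valve replicate 3, where the limma adjusted p of Plod2 was 0.0662 to 0.0744. Basement membrane genes showed 3 falls and no rise among 18, with 3 higher at unadjusted p below 0.05 and a median of -0.31. These were Lamc3, a laminin gamma chain (-2.04), and Col4a6 (-1.51) and Col4a5 (-1.09), the paired chains of a smooth muscle type IV collagen. The count was 7 without aorta replicate 2 and 1 without aorta replicate 1, aorta replicate 4 or valve replicate 3.

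More proteoglycan genes rose than fell. Of 23 proteoglycan and hyaluronan genes 6 rose and 1 fell, with a median of 0.19, against 4.41% and 2.65% of all genes. Fmod, fibromodulin, read 2.28, 1.89, 0.22 and 1.74 in the valves and -0.58, -0.30, -0.43 and -0.92 in the aortas, and rose by 2.09 ± 0.43 (log2, SE; limma adjusted p = 0.0099). Kera, keratocan, rose by 2.80, Lum, lumican, by 1.03 and Dcn, decorin, by 1.36. The Dcn call was lost without any 1 of 7 arrays (limma adjusted p 0.0534 to 0.106) and the Lum call without aorta replicate 1 or valve replicate 1 (limma adjusted p 0.0562 to 0.059). Other small leucine-rich proteoglycans had negative differences that did not pass, namely Omd, osteomodulin (-0.74, limma adjusted p = 0.0533), Ogn, osteoglycin (-0.69, limma adjusted p = 0.0913) and Bgn, biglycan (-0.28, limma adjusted p = 0.498). The second probe set of Ogn passed at -0.70 (limma adjusted p = 0.014), and Omd passed without aorta replicate 3 or valve replicate 2 (limma adjusted p 0.0309 to 0.0429). Has2, the hyaluronan synthase of the endocardial cushions, rose by 1.38 (0.78 averaged over its probe sets). Of the glypicans, Gpc1 rose by 2.29 and Gpc3 fell by 1.26, a call lost without valve replicate 3 (limma adjusted p = 0.06). Without aorta replicates 2 and 4 together 3 of these genes rose, and the number of falls was 3 without aorta replicate 2 or valve replicate 2 and 0 without valve replicate 3. Of 24 matrix proteases and inhibitors none rose, with 3 higher at unadjusted p below 0.05, and 2 fell, the membrane-bound metalloprotease Mmp17 (-1.54) and the serine protease Htra1 (-1.04). The Htra1 call was lost without valve replicate 3 (limma adjusted p = 0.0527).

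Genes of cartilage matrix rose in the valve. Of 27 measured, 14 rose and 1 fell, with a median of 1.02. Comp, cartilage oligomeric matrix protein, read 2.59, 1.82, 0.59 and 2.13 in the valves and -2.82, -1.99, -1.01 and -2.35 in the aortas (difference 3.83 ± 0.42 SE, 14.2-fold, limma adjusted p = 0.000149). Col2a1, type II collagen, read 3.85, 3.29, 0.055 and 3.43 in the valves and -0.045, -0.78, -0.22 and -0.11 in the aortas, and rose by 2.95 ± 0.69 (log2, SE; limma adjusted p = 0.0195). Valve replicate 3 was the lowest valve for both, and for Col2a1 it stood only just above the aortas. Ucma, a secreted protein of cartilage, rose by 3.71, Col9a1 and Col9a3, type IX collagen chains, by 3.46 and 3.04 (2.23 and 1.35 averaged over their probe sets), and Prg4, lubricin, by 3.36. Sox9, the transcription factor that drives cartilage genes and is active in valve formation, read 0.73 to 1.29 in the valves and -1.29 to -0.83 in the aortas, and rose by 2.07 ± 0.20 (log2, SE; limma adjusted p = 0.000124), or by 1.35 averaged over its probe sets. Unlike the matrix genes, Sox9 in valve replicate 3 (0.86) lay within the range of the other valves. Acan, aggrecan, the main proteoglycan of cartilage, did not pass (-0.14, 95% interval -1.26 to 0.98). Mia, a secreted cartilage protein, fell by 2.25. The Col2a1 call was lost without valve replicate 1 or 4 (limma adjusted p 0.0534 to 0.0686), and the list had 8 rises without aorta replicates 2 and 4 together, 9 with the 8 arrays fitted alone and 10 to 17 without any single array. Of 13 genes of osteogenesis and calcification 2 rose, of which Ank, a pyrophosphate transporter (0.97), lost its call without valve replicate 3 (limma adjusted p = 0.0575). The other rise, of the mineral-binding serum protein Ahsg (0.52), was lost without any 1 of 6 arrays (limma adjusted p 0.0579 to 0.129). The fall was that of Dlx5, a factor of bone and pharyngeal arches (-2.27), which is among the calls lost above.

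Transcription factors of heart and position differed with the tissue. Of 20 cardiac factors 7 rose and 1 fell, with a median of 0.25. Tbx20, required for heart and valve development, read 1.41, 0.95, 0.95 and 0.59 in the valves and -2.54, -3.54, -1.0 and -2.18 in the aortas, and rose by 3.29 ± 0.38 (log2, SE; limma adjusted p = 0.00021). Tbx5, a factor of atria and left ventricle, rose by 3.09, with valve replicate 4 (0.84) the lowest valve against 2.01 to 3.01 in the others. Ankrd1, a stretch-responsive cardiac cofactor, rose by 5.30, Tbx3 by 2.25 (1.14 averaged over its probe sets) and Nkx2-5 by 1.17. Tbx18, a factor of epicardium and mural cells, read -1.0, -0.75, -1.74 and -0.57 in the valves and 0.67, 0.39, 0.72 and 0.57 in the aortas, and fell by 1.60 ± 0.26 (log2, SE; limma adjusted p = 0.0021). Among 22 valve and cushion factors 3 rose, Tbx20, Meox1 (2.99) and Sox9, and 1 fell, Foxc1 (-0.98); the Foxc1 call was lost in 6 of the 8 fits without a single array (limma adjusted p 0.0544 to 0.0852).

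Hox genes, which mark position along the body axis and in the neural crest of the arch arteries, were lower in the valve. Of 20 Hox and positional genes 6 fell and 1 rose, with a median of -0.44. Hoxa3 read -3.61, -2.11, -2.14 and -1.67 in the valves and 0.25, 0.0068, -0.0032 and 0.070 in the aortas, and fell by 2.46 ± 0.57 (log2, SE; limma adjusted p = 0.0182). The 4 aortas lay close together and every valve far below them. Hoxa2 fell by 1.74 and Hoxa4 by 1.27, both without losing the call when any single array was left out, whereas Hoxb3 (-1.42) lost it in 5 such fits (limma adjusted p 0.0692 to 0.0922). The number of falls was 2 without aorta replicate 1 and 3 without valve replicate 1, 3 or 4. Hoxc6 was the member that rose (0.66), a call lost without aorta replicate 1 or 3 or valve replicate 1 or 3 (limma adjusted p 0.0505 to 0.0773) and, at 0.35, on the average of its probe sets (limma adjusted p = 0.076).

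Few members of the signalling lists were called, though some of these differed strongly. Over all genes 4.41% rose and 2.65% fell, so a few calls in a list were not read as a result about that list. In the bone morphogenetic protein pathway 4 of 24 genes rose and 2 fell, with a median of 0.08. The ligand Bmp5 read 0.95, 0.96, 0.58 and 1.12 in the valves and -3.65, -2.25, -3.57 and -3.99 in the aortas, and rose by 4.27 ± 0.52 (log2, SE; 19.3-fold; limma adjusted p = 0.000267). All valves were above all aortas, and aorta replicate 3 (-3.57) lay within the range of the other aortas. Averaged over its probe sets Bmp5 rose by 2.10. The ligand Bmp2 rose by 1.02 and the extracellular modulator Bmper by 2.92. The falls were the type I receptors Bmpr1b (-3.35) and Bmpr1a (-0.66), and the Bmpr1a call was lost in 5 fits without a single array (limma adjusted p 0.0699 to 0.109). Other receptors did not pass, such as Bmpr2 (-0.46, limma adjusted p = 0.639) and Acvr1 (0.02, limma adjusted p = 0.985).

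In the Notch pathway 2 of 16 genes rose and 3 fell, with a median of 0.26. Its hairy-related targets parted: Hey1 rose by 1.13 (limma adjusted p = 0.00977), while Hey2 fell by 1.11 (limma adjusted p = 0.00589) and Heyl by 1.04 (limma adjusted p = 0.0396). Hey2 read -0.82, -0.52, -1.73 and -0.68 in the valves and 0.13, 0.36, 0.066 and 0.12 in the aortas, with no overlap. The Heyl call was lost in 6 fits without a single array (limma adjusted p 0.0593 to 0.138). Of 36 Wnt genes 2 rose and 3 fell, with a median of -0.07. The secreted inhibitors Sfrp5 (1.41, or 0.90 averaged over its probe sets) and Sfrp4 (-1.93) moved in opposite directions, and the ligand Wnt9b, which is made by valve endocardium in development, rose by 1.13 (0.60 averaged). Of 20 transforming growth factor beta genes 2 rose and 1 fell, with a median of -0.23. They were Thbs1, an activator of the ligand (1.91), the co-receptor Eng (1.24) and the matrix target Postn (-0.75); the Thbs1 and Postn calls were each lost in at least 5 fits without a single array. Of 20 fibroblast growth factor genes 1 rose, Fgf12 (3.06), which encodes an intracellular partner of sodium channels and whose groups overlapped at valve replicate 4 (-0.01) and aorta replicate 2 (0.05), and none fell, with 2 lower at unadjusted p below 0.05 and a median of 0.46. The 15 retinoic acid genes held 1 rise, Cyp26a1, the enzyme that degrades retinoic acid (2.11), and 1 fall, the carrier Rbp4 (-1.95), with a median of 0.05.

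Axon guidance genes, many of which also pattern vessels, moved both ways. Of 27 measured, 4 rose and 4 fell, with a median of 0.37. Unc5b, a netrin receptor, read 0.72, 0.69, 0.35 and 0.66 in the valves and -1.25, -1.41, -0.81 and -1.19 in the aortas, and rose by 1.77 ± 0.16 (log2, SE; limma adjusted p = 7.9e-05). The groups lay well apart, and the spread within each was small. Epha7, an ephrin receptor, rose by 2.03, and Efna5 (-1.16), an ephrin ligand, and Sema3d (-1.34), a semaphorin, fell. The Sema3d call was lost without valve replicate 1 or 3 (limma adjusted p 0.0518 to 0.0601), and the number of guidance falls was 1 without valve replicate 1 and 2 without valve replicate 3.

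Genes of vessel tone fell where they were called. Of 22 measured, 5 fell and none rose, with 2 higher at unadjusted p below 0.05 and a median of -0.25. Pde3a, a phosphodiesterase of cyclic nucleotides, read -1.26, -0.98, -0.88 and -0.56 in the valves and 1.07, 0.56, 0.20 and 1.04 in the aortas, and fell by 1.64 ± 0.24 (log2, SE; limma adjusted p = 0.00103). Gucy1b1, a subunit of the nitric oxide receptor, fell by 1.14 and Ace, the angiotensin-converting enzyme, by 0.88. The count was 8 without aorta replicate 2 and 3 without aorta replicate 1 or valve replicate 1 or 3. Of 10 smooth muscle potassium channel genes 2 rose and 2 fell. Kcnab1, a beta subunit, fell by 2.06 and kept its call without any single array. Kcnmb1, Kcna1 (2.24) and Kcnk3 (2.02) each lost theirs in at least 4 such fits (limma adjusted p 0.054 to 0.0953).

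Some markers of several other cell types were higher in the valve. The ratios hold no signal level, so they do not show how much of a cell type either tissue held. Of 13 melanocyte genes 5 rose and all 13 had a positive difference, with a median of 0.56. Dct, a melanin-synthesis enzyme, read 3.61, 3.21, 1.84 and 2.80 in the valves and -0.49, -0.37, -0.77 and -0.36 in the aortas (difference 3.36 ± 0.48 SE, 10.3-fold, limma adjusted p = 0.000809). Tyrp1 rose by 2.56 and Mlana by 2.17, whereas Tyr, tyrosinase, the defining enzyme, did not pass (0.56, limma adjusted p = 0.225). Of 8 lymphatic genes 4 rose, led by Prox1 (4.12), which heart muscle also expresses; the lymphatic receptor Lyve1 differed by 0.35 (limma adjusted p = 0.737). Of 20 blood endothelial genes 5 rose and 1 fell, with a median of 0.74. In all, 16 of the 20 had a positive difference. Kdr, the receptor of vascular endothelial growth factor, rose by 1.74, a call lost without any 1 of 6 arrays (limma adjusted p 0.0501 to 0.108). The fall was that of the transcription factor Erg (-0.90, limma adjusted p = 0.00932), and the adhesion molecule Pecam1 showed -0.86 and did not pass (limma adjusted p = 0.0945). The endothelial count of rises was 1 without aorta replicate 1, valve replicate 1 or valve replicate 3, and 2 without aorta replicate 4. Of 13 sympathetic neuron genes 3 rose, but 7 had a positive and 6 a negative difference, with a median of 0.03. Among the rises was Dbh, the enzyme that makes noradrenaline, at 2.25 (1.21 averaged over its probe sets). Of 10 Schwann cell genes 3 rose, with a median of 0.43, among them Sox10, which melanocytes share, at 1.67 (0.74 averaged). Without aorta replicates 2 and 4 together the Schwann cell count was 0 and the lymphatic count 2.

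Markers of blood and fat varied widely among the 4 aortas. Of 20 macrophage genes 1 rose, Cd14 (1.11), and the count was 14 without aorta replicate 2 and 0 without any other single array. The mean of the list ranged from 0.26 to 0.51 in the valves and from -1.05 to 1.04 in the aortas. Of 17 T cell and thymocyte genes none rose, with none at unadjusted p below 0.05, and 1 fell, the signalling adaptor Lat (-0.95). That count was 4 without aorta replicate 1, 2 without aorta replicate 3 and 0 without any other single array. The thymocyte gene Rag1 read -0.22 to 0.17 in the valves and -0.05, 5.06, 0.68 and 3.15 in the aortas (limma adjusted p = 0.0913). Of 16 adipocyte genes 1 rose, the mitochondrial coactivator Ppargc1a (1.99, lost without valve replicate 3 with limma adjusted p = 0.0541), and 1 fell. Ppargc1a went against its list, in which 14 genes had a negative and 2 a positive difference, with a median of -0.81. Ucp1, the uncoupling protein of brown fat, read -0.70, -1.22, -1.91 and -0.15 in the valves and 2.16, 4.55, 2.49 and 1.26 in the aortas, with the groups apart and limma adjusted p = 0.0817. Dio2, also a brown fat gene, was among the deepest falls, and lost its call without aorta replicates 2 and 4 together (limma adjusted p = 0.0613). Of 13 mesothelial genes 2 fell and none rose, and no erythroid, mast cell, neutrophil or airway and thyroid gene was called (unadjusted p below 0.05 for 1, 2 and 0 genes in these 3 lists). Of 9 B cell genes 1 rose, the kinase Blk (1.42), a call lost without aorta replicate 1 or 3 or valve replicate 3 (limma adjusted p 0.0502 to 0.0701). In this list 6 genes had a negative and 3 a positive difference, with a median of -0.07. Of 15 fibroblast genes 3 rose and 1 fell, and the rise of Gsn, the actin-severing protein gelsolin (1.35, or 0.62 averaged over its probe sets), kept its call without any single array, whereas 1 rose without aorta replicate 1 or valve replicate 1. Among the fibroblast genes 7 had a positive and 8 a negative difference, with a median of -0.01. Of 21 cell cycle genes 2 rose and none fell (none at unadjusted p below 0.05 either), the mitotic kinase Bub1 (1.57) and the cyclin Ccnd1 (1.49). Over all genes 4.41% rose. The other Bub1 probe set differed by -0.01 (limma adjusted p = 0.987), with an average of 0.78. Of 21 interferon and inflammation genes 2 rose, the chemokines Cxcl12 (1.54, or 0.70 averaged over its probe sets) and Cx3cl1 (0.62), the latter losing its call on the average at 0.28 (limma adjusted p = 0.103), and of 20 immediate-early genes 1 rose, Egr2 (1.52), a call lost without any 1 of 6 arrays (limma adjusted p 0.0652 to 0.119). Among the immediate-early genes 12 had a negative and 8 a positive difference, with a median of -0.10. Of 20 skeletal muscle genes 4 rose, of which the slow troponin Tnni1 (2.06) kept its call without any single array, and the count was 1 without aorta replicate 1, aorta replicate 4 or valve replicate 3.

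The same comparison in Eln+/+ mice called fewer genes, 217 higher (1.19%) and 23 lower (0.126%). Of these, 188 were called in the same direction in Eln+/- mice, which is 78.3% of the Eln+/+ calls and 14.6% of the Eln+/- calls, and none was called in the opposite direction. Of the 1285 genes called in Eln+/- mice, 1209 had the same sign in Eln+/+ mice, with a median Eln+/+ difference of 0.80 for the rises and -0.44 for the falls. The genes were selected for their Eln+/- difference, so their smaller Eln+/+ medians are a description. The share of same signs over all genes was not counted, so the 1209 are not read as a property of the called genes. Over 18193 genes the differences of the genotypes correlated with Pearson r = 0.684, across genes, which are not independent replicates. The test of the difference itself, the interaction of tissue and genotype, called no probe set (0%) in limma, with 3477 at unadjusted p below 0.05 and a smallest adjusted p of 0.338. That smallest value belonged to Perm1, a regulator of muscle mitochondria, which read 1.32 to 1.80 in the Eln+/- valves, -0.72 to -0.01 in the Eln+/- aortas, -0.56 to 0.32 in the Eln+/+ valves and -0.53 to 0.28 in the Eln+/+ aortas. Its Eln+/- difference was 1.97, or 1.07 averaged over its probe sets. More calls in Eln+/- mice are therefore not shown to be a difference between the genotypes. The genotypes also differed in their sex-linked genes, as given below. Among the lists, the sarcomere median was 4.30 in Eln+/- and 3.35 in Eln+/+ mice, the smooth muscle median -1.25 and -0.62, the oxidative phosphorylation median 1.42 and 0.38, and the cartilage median 1.02 and 1.16. Single Eln+/+ aortas stood apart as well. Replicate 4 had an oxidative phosphorylation mean of 0.39, against -1.16 to -0.45 in the others, and an adipocyte mean of 2.06. Replicate 2 had a sarcomere mean of -0.44, against -3.03 to -2.70. The part of these arrays in the medians was not tested.

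**Figure D5:**
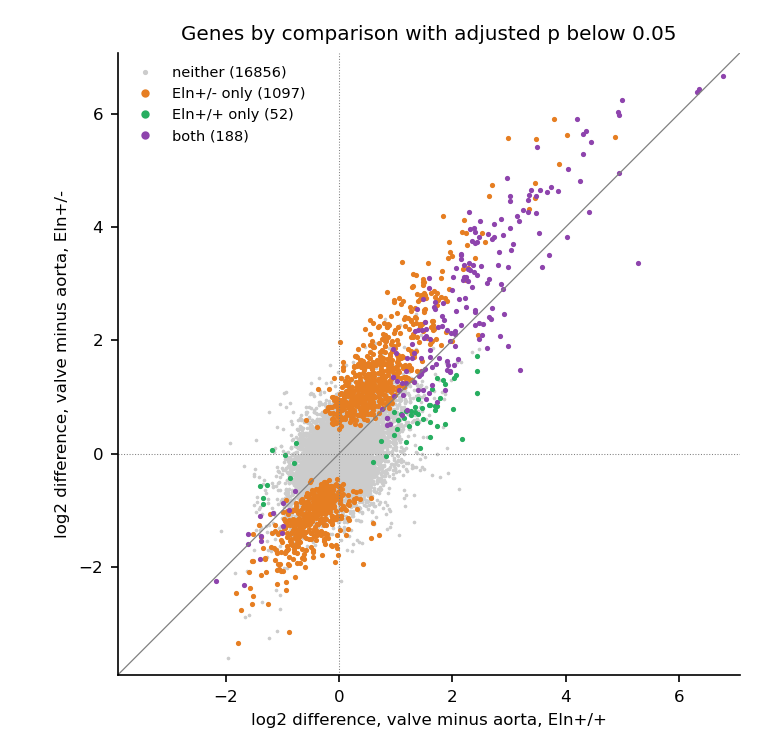
Log2 difference between valve and aorta in Eln+/+ mice (horizontal axis) and in Eln+/- mice (vertical axis) for 18193 genes, coloured by the comparison in which limma's adjusted p was below 0.05, with the line of equal differences in grey. The 188 genes called in both lie in the upper right and lower left, and no gene called in both lies in the other corners.

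The sex-linked genes were alike on all 8 Eln+/- arrays and not on the Eln+/+ arrays. Xist, which is transcribed from the inactive X chromosome, read -0.06 to 0.32 on the 8 Eln+/- arrays, and the Y-linked gene Uty -0.97 to -0.62. On 6 of the 8 Eln+/+ arrays, valve replicates 1, 3 and 4 and aorta replicates 1, 2 and 3, Xist was at the table's lowest value of -6.64 and Uty between 2.33 and 3.72. The remaining Eln+/+ arrays, valve replicate 2 and aorta replicate 4, matched the Eln+/- arrays. In the Eln+/- comparison 0 of 4 sex-linked genes were called by limma and 0 were at unadjusted p below 0.05. High Uty with Xist at the lowest value is the pattern of males, and it was present on 6 Eln+/+ arrays and on no Eln+/- array. Sex and genotype are therefore partly confounded and cannot be told apart in the comparison of the genotypes. The part of sex in that comparison was not tested.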

How the data were processed

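RNA of 16 specimens was amplified, labelled with biotin and hybridised to 1-colour arrays with 45101 probe sets, per the labels' protocols. The authors deposited 1 linear ratio per probe set and array. RMA is the tool that the submitters' processing notes name, and the build, the denominator of the ratio and the array scanner settings are not given in the sources used here. Of the ratio columns, 39827 probe sets have a median of 1 over the 16 arrays and 5274 a lower one, and no depth or background is known. The log2 of the ratio was taken here without further scaling or floor (lowest ratio 0.01), and 64 control probe sets were left out.

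Groups came from the array titles. All 16 arrays entered a limma fit (limma 3.58.1, R 4.3.3) with a mean per tissue and genotype and no covariate, which gave 12 residual and 3.60 prior degrees of freedom, and p-values were adjusted by Benjamini-Hochberg over 45037 probe sets. GEO's platform annotation named 1 gene for 34945 of them, several for 932 and none for 9160, which left 18193 genes, each represented by its most variable probe set over the 16 arrays. The named genes are Eln, the 15 genes that rose most and the 15 that fell most among those past the threshold with no overlap between the tissues' arrays, listed pairs of related genes, and the 5 genes of smallest interaction p in each direction. From each of 48 gene lists (820 of 885 names measured) they include up to 5 members past the threshold and up to 3 not past it, by smallest p. Tnnt2, Ryr2, Cox7a1, Cox4i1, Mylk, Fbln1, Col2a1, Prg4, Acan, Tbx3, Nkx2-5, Sema3d, Kdr, Pecam1, Bgn, Bmpr2, Acvr1 and Uty fall outside this rule and were chosen after their values were seen. The arrays, lists and tests were chosen with earlier results of these data known. Serpina1b, Perm1 and other genes outside the lists come from these ranks. Promoters were those of RefSeq (GRCm38.p6), searched on both strands. The fit was tested on 10 simulations of the Eln+/- comparison with 200 changed probe sets of 45037. It recovered 50.5% of changes of 1 and 91.2% of changes of 2 on the log2 scale. False calls averaged 11.5 and ran from 0 to 59. The data called 2615 probe sets, and these rates need not hold where more probe sets change. Alternatives varied the arrays in the fit, the replicate block, array weights, the variance prior, the scaling, filters and the summary over probe sets; leaving out aorta replicates 2 and 4 together was chosen after seeing the data.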

Additional observations from a re-analysis of the deposited data

Results flagged for a closer look

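In 17 of 158 groups of 4 values (10.8%), the highest or lowest array stood apart from the other 3 by Dixon's criterion, which chance alone passes in about 1 of 20 groups. Among genes, Eln was low in aorta replicate 2 (-0.64), Mark1 was low in the same array (-0.24), Ncam1 was low in aorta replicate 1 (0.085) and Pgr was high there (1.40). Bmpr1b was high in aorta replicate 4 (1.96) and Trdn, a junctional protein of heart muscle, in aorta replicate 3 (-0.60). Acta2 (-3.20) and Mia (-2.37) were low in valve replicate 3. Nppa was low in valve replicate 4 (0.86). Myh6 (0.94), Lmod2 (0.95) and Smyd1 (1.62), all of heart muscle, were low in valve replicate 2. Among list means, the atrial list was high in aorta replicate 3 (-0.95) and the smooth muscle list low in aorta replicate 2 (-0.76). Valve replicate 3 was low for the proteoglycan list (-0.17) and the transforming growth factor beta list (-0.48) and high for the skeletal muscle list (0.60).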

How the results depend on the processing

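Of 151 named genes past the threshold, 88 kept their call under all 18 alternatives, 63 lost it under at least 1 and none changed sign; of 24 named genes not past it, 13 passed under at least 1. The count of called probe sets, 2615 with 1473 higher and 1142 lower, fell to 1602, with 569 lower, when the 8 Eln+/- arrays were fitted alone. It was 1703, with 977 higher and 726 lower, when probe sets were averaged per gene, a setting that tests fewer features. It was 1578, with 877 higher and 701 lower, without aorta replicates 2 and 4 together. Leaving out 1 array at a time gave 1366 (without valve replicate 3) to 3457 (without aorta replicate 2) called probe sets, 897 to 1786 higher and 469 to 1671 lower; the total was 1600 without aorta replicate 1, 1617 without aorta replicate 4 and 1640 without valve replicate 1. Fewer arrays enter each of these fits, and beyond that the cause was not tested. Eln kept its call and direction under all 18 alternatives, between -1.89 and -1.17 on the log2 scale, with limma adjusted p from 0.00358 to 0.0447. Leaving out 1 array gave -1.89 to -1.29. The interaction of tissue and genotype called 0 probe sets under each alternative that could be run; with the 8 Eln+/- arrays alone it could not be fitted. Of the named genes, 6 that were not past the threshold changed sign under at least 1 alternative. In fits without 1 array their log2 differences ran from -0.32 to 0.18 for Myom1, -0.27 to 0.50 for Xirp1, -0.19 to 0.16 for Gata6, -0.73 to 0.41 for Acan, -0.033 to 0.85 for Lyve1 and -0.18 to 0.26 for Acvr1. Array weights gave -0.14 for Myom1 and 0.10 for Gata6, quantile normalization gave 0.015 for Gata6, averaging probe sets gave -0.072 for Acvr1, and leaving out aorta replicates 2 and 4 together gave -0.26, -0.12 and 0.19 for Myom1, Xirp1 and Gata6.

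The labels give no sign that array numbers pair specimens. In Eln+/+ mice the mean of the sex-linked list was -0.41 in valve replicate 2 and 1.35 in aorta replicate 2. It was 1.61 in valve replicate 4 and -0.39 in aorta replicate 4. These numbers thus do not join specimens of 1 animal, and the replicate block below joins different animals there. Residuals of same-numbered Eln+/- valve and aorta arrays correlated at 0.020, -0.040, 0.0074 and 0.040, and those of Eln+/+ arrays at 0.052, -0.034, -0.026 and -0.0019, so the numbers were not taken as pairs. With the number within genotype as a replicate block, 2062 probe sets were called (1278 higher and 784 lower), the log2 difference of Eln stayed at -1.60 (limma adjusted p = 0.0338), and 15 of the 151 named genes lost their call. The ratios keep no signal level, so how precision depends on brightness could not be given, and the number of arrays limits it.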
